A study of Mus musculus with 33 samples.

Results

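The 8 genes Thy1, Chi3l4, Mobp, Hapln4, Tuba8, Ier5l, Bex1 and Mnd1 were described here, of 14613 genes in the deposited table of whole main olfactory epithelium (MOE). They had been picked from that table for high values in both libraries of mice heterozygous-null for Dnmt3a (Het) against the 4 libraries of wild-type (WT) and homozygous-null (KO) mice. The choice rests on measured values, so the height of the Het libraries is a description and carries no test. All 8 were found, and all 8 passed the filter on low values (0.5 or more in at least 2 libraries), as did 14602 genes in all. For 7 of the 8 both Het libraries lay above each of the other 4. Mnd1 did not meet that description, because its Het odor library (29.0) lay below KO water (39.3). It was highest in Het only within each treatment.

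RNA depleted of ribosomal RNA came from mice at 3 weeks of age that were Dnmt3a WT (+/+), Het (+/-) or KO (-/-). The labels leave out the deleted exons of Dnmt3a, the driver of any recombinase, the strain and how many animals went into a library. MOE was dissected after mice had spent 10 min in a clean cage and then 60 min with 80 µL of water or of octanal, acetophenone and amyl acetate mixed 1:1:1, called odor here. Each genotype and treatment has 1 library, made with the NuGEN kit. Mature olfactory sensory neurons (mOSN) were sorted by flow cytometry from mice of the same 3 genotypes, with 2 libraries per genotype that the deposited table gives as 1 value. All values are on the authors' RPKM scale (reads per gene length and library depth). Reads recovered from the MOE values came to between 9410063 (KO water) and 17639584 (Het odor). Dnmt3a itself was 84.4 and 89.0 in WT (water, then odor), 50.3 and 66.6 in Het, and 56.1 and 48.3 in KO epithelium.

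Dnmt3a adds methyl groups to cytosine, mostly in CG dinucleotides, and is the main de novo methyltransferase of maturing neurons. The olfactory epithelium renews its sensory neurons throughout life and sends their axons to the olfactory bulb of the brain. It also holds basal cells, supporting cells, glands and glia. The 8 genes do not form a pathway. Thy1 and Hapln4 are surface and matrix genes of central neurons, Mobp is a gene of central myelin, Tuba8 an alpha tubulin, Bex1 a small adaptor of neurons, Ier5l a relative of an immediate early gene, Chi3l4 a chitinase-like protein and Mnd1 a factor of meiotic recombination.

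Reference promoter windows, the 250 bases before the annotated start, were at hand for 6 of the 8 genes (RefSeq, build GRCm38.p6; the authors' build was mm9, so positions are those of the reference). Of these, 4 are printed because they show how far the members differ in the CG dinucleotides that DNA methyltransferases act on. Capitals mark CG, and in the Chi3l4 window also TATAAA. Chi3l4 (RefSeq Chil4) is read from chr3:106219480-106219729 on the minus strand, Mobp from chr9:120149492-120149741 on the plus strand, Ier5l from chr2:30474200-30474449 on the minus strand and Bex1 from chrX:136215514-136215763 on the minus strand.
Chi3l4: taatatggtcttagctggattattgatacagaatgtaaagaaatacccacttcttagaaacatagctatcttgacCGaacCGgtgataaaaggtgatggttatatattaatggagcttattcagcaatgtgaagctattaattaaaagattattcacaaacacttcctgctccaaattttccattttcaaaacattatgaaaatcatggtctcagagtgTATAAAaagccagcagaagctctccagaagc
Mobp: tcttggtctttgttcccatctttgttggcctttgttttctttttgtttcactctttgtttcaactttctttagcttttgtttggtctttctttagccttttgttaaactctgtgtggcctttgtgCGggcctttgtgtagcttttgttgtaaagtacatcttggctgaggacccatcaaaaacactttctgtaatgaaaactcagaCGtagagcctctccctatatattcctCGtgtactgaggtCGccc
Ier5l: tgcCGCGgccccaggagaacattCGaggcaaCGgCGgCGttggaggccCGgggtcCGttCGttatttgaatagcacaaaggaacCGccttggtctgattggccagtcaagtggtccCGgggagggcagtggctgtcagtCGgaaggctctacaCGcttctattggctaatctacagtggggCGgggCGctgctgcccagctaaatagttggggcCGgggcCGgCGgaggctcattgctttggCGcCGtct
Bex1: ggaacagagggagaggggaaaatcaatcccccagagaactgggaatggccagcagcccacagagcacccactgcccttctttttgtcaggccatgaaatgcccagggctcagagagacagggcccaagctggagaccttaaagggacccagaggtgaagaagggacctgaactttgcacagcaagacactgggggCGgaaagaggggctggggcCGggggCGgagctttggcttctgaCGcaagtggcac
The window held 2 CG in Chi3l4, 4 in Mobp, 4 in Bex1, 7 in Tuba8, 8 in Mnd1 and 20 in Ier5l. The median over 32841 reference windows was 6. Ier5l had more CG than 82.0% of all windows, and Chi3l4 had more than 18.8%. GC content ran from 34.0% in Chi3l4 to 63.6% in Tuba8 and Mnd1, against a median of 52.4%. The 6 windows thus lay on both sides of the median for CG number. TATAAA, searched on both strands, was found in Chi3l4 alone of the 6 and in 12.4% of all windows. TGACGTCA (1.55% of windows), searched on both strands, was found in none of the 6.

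Among the neuronal surface and matrix genes, Thy1 encodes a glycolipid-anchored immunoglobulin protein of projection neurons and T cells. Its values were 142 in Het water and 130 in Het odor, 43.3 and 39.2 in WT, and 26.4 and 30.4 in KO (water first here and below). Both Het libraries stood well apart from 4 low libraries that lay close to each other, and the lower Het library was 3.01 times the highest of the rest. Hapln4 encodes a link protein that ties hyaluronan to proteoglycans around neurons. It was 13.5 and 17.3 in Het, 0.798 and 4.40 in WT, and 3.20 and 3.14 in KO. The Het libraries were again the highest, but counts were low, with 3 reads in WT water and 83 in Het odor. The 95% Poisson interval of WT water ran from 0.164 to 2.33, and that of Het water from 10.1 to 17.8. Such intervals cover counting error only.

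Mobp, which encodes a structural protein of the myelin made by oligodendrocytes, was 49.4 and 47.9 in Het, 13.2 and 1.08 in WT, and 2.90 and 6.24 in KO. The Het libraries were level with each other, whereas the WT libraries lay far apart, with 152 reads in water and 12 with odor. Tuba8, one of the alpha tubulins that build microtubules, was 33.9 and 40.8 in Het, 13.2 and 11.9 in WT, and 3.43 and 0.504 in KO. It formed 3 levels, with Het highest, WT between and KO lowest. The KO values rest on 6 reads and 1 read, and the interval of KO odor ran from 0.0128 to 2.81.

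Bex1, a small X-linked adaptor protein of neurons, was 115 and 87.2 in Het, 44.2 and 33.2 in WT, and 45.6 and 34.6 in KO. WT and KO were nearly alike, and in each genotype the odor library was the lower of the pair. Ier5l was 203 and 253 in Het, 66.8 and 88.2 in WT, and 93.5 and 101 in KO. Its odor library was the higher of the pair in each genotype. The lower Het library was 1.91 times the highest of the rest for Bex1 and 2.02 times for Ier5l, the narrowest separations among the 7 members whose groups did not overlap.

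Chi3l4 encodes a secreted chitinase-like lectin also known as Ym2. It was 680 and 1031 in Het, 156 and 46.1 in WT, and 39.5 and 23.0 in KO. This was the most abundant member in Het and the one set apart most, 4.37-fold between Het water and WT water, its highest other library. Reads numbered 1388 and 2631 in Het and 39 to 311 in the others. Mnd1 works with Psmc3ip in the strand exchange of meiosis. It was 74.6 and 29.0 in Het, 9.79 and 4.51 in WT, and 39.3 and 11.6 in KO, from 4 to 70 reads. Its groups overlapped, and the interval of Het odor (20.1 to 40.5) overlapped that of KO water (25.9 to 57.2). Within each treatment all 8 members had Het highest, an ordering shared by 18.0% of all genes.

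**Figure D1:**
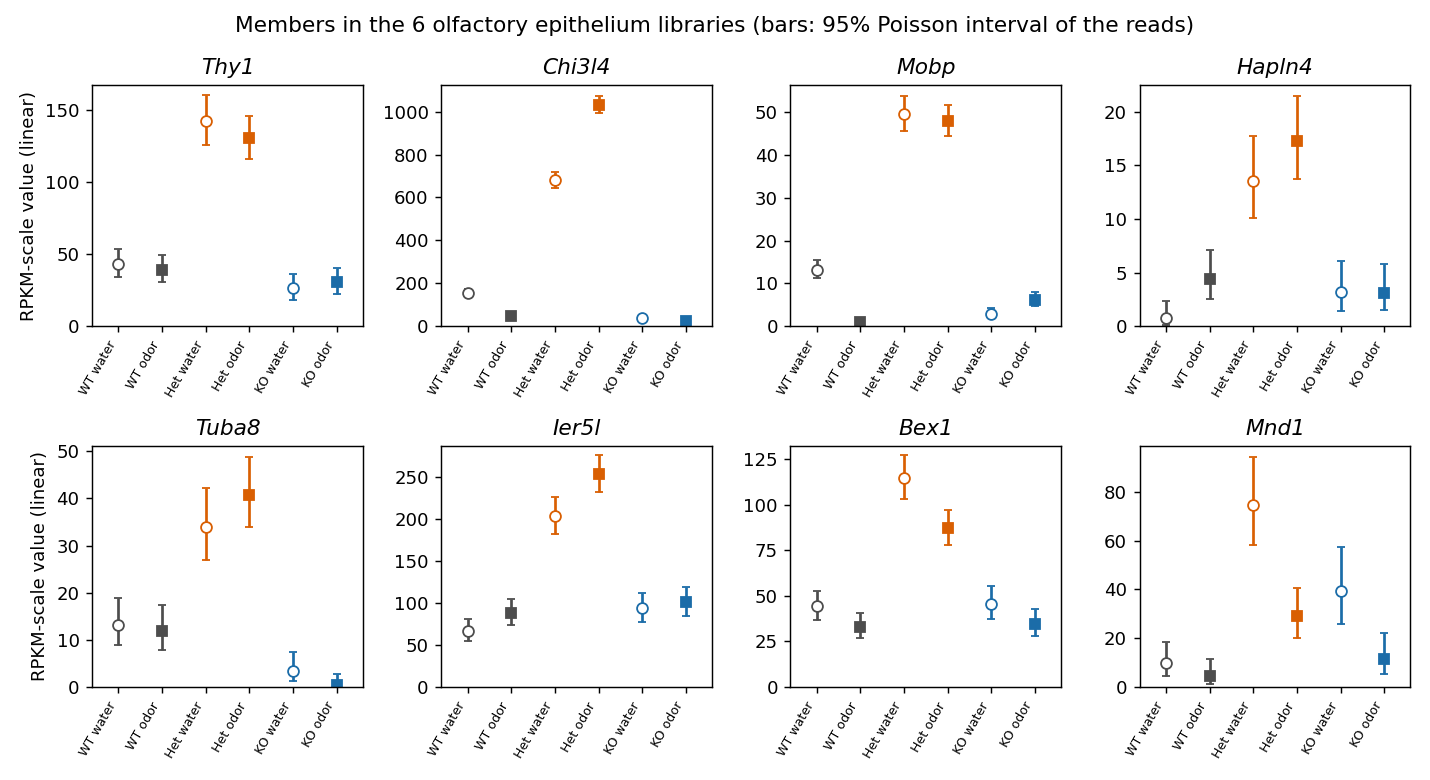
RPKM-scale values (vertical axis, linear, from 0) of the 8 genes in the 6 MOE libraries (horizontal axis; open circles water, filled squares odor; grey WT, orange Het, blue KO), with 95% Poisson intervals of the recovered reads as bars. The 2 Het points lie above the other 4 in every panel except Mnd1, where Het odor (29.0) is below KO water (39.3).

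The separation of Het was set against all genes with the gap, the lower Het library minus the highest of the other 4 on the log2(value + 0.5) scale. The median gap over all genes was -0.44. Chi3l4 had the widest gap of all genes (2.12). Mobp (1.82) stood at rank 3, Thy1 (1.58) at 4, Hapln4 (1.52) at 5 and Tuba8 (1.32) at 7. Ier5l (1.01) was at rank 36, Bex1 (0.93) at 48 and Mnd1 (-0.43) at 7224. A gap above 0 was found for 11.5% of all genes and a gap of at least 1, or 2-fold, for 0.253%, that is 37 genes, 6 of them members. Since the members were picked for this ordering, nothing is read from their share. The genes with both libraries of a genotype above the other 4 numbered 1677 for Het, 563 for WT and 766 for KO. WT water set the upper bound for many: without that library 204 genes had a gap of at least 1, without Het water 208 and without Het odor 75. With 1 Het library left, the condition is easier to meet.

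**Figure D2:**
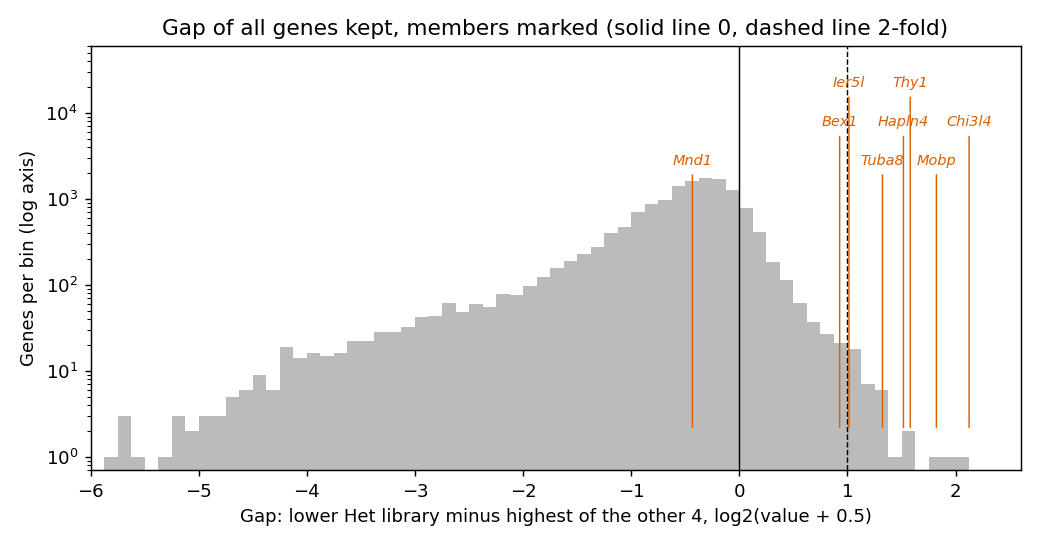
Number of genes (vertical axis, log scale) by gap (horizontal axis, lower Het library minus the highest of the other 4, log2(value + 0.5)) for the 14602 genes kept, with the members marked in orange. The solid line marks a gap of 0 and the dashed line a gap of 1; 6 members lie beyond the dashed line, Bex1 just short of it (0.93) and Mnd1 among the bulk of the genes (-0.43).

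The genes that resembled the members most were taken from the rest of the table, leaving out odorant receptors. By gap the first was Tet3, which oxidizes methylated cytosine, with 906 and 2235 in Het, 167 and 244 in WT, and 190.2 and 173 in KO. Its gap of 1.89 exceeded that of every member except Chi3l4. Next came Nell1 (gap 1.46), Gabra5 (1.27), which encodes a GABA receptor subunit, Lrtm2 (1.26), Mlc1 (1.26), a membrane protein of astrocytes, Myo16 (1.26), Fbxo41 (1.26), Scn2b (1.22), a sodium channel subunit, Gpc5 (1.19), a glypican, and Bhmt (1.15), a methyltransferase of homocysteine. By Pearson's r over the 6 libraries with the mean of the members' centred log2 values, among genes with a gap of at least 1, Mbp (r = 0.997) came first. Mbp encodes the major basic protein of myelin and was 65.1 and 71.4 in Het, 29.2 and 23.6 in WT, and 27.2 and 21.8 in KO. Fbxo41 (r = 0.990), Bhmt (0.979), Chst7 (0.977), Nell1 (0.963), Nat8l (0.947), Scn2b (0.945), Lrtm2 (0.927), Tet3 (0.927) and Lat (0.925), an adaptor of T cell signalling, followed. The 2 rankings shared 6 genes. These r values are descriptions over 6 points that the choice of members and of the gap already ties together. Several of these genes were scarce, with a lowest library of 2 reads for Gabra5, Gpc5 and Lat and of 4 for Lrtm2, Scn2b and Bhmt.

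Relatives of each member were taken from lists of families and cell types, of which the measured genes were counted by the same ordering (11.5% of all genes with both Het libraries above, 11.6% below, median log2 difference between the Het and the other mean of 0.03). Of 25 measured central neuron genes, 12 (48.0%) had both Het libraries above the other 4 and 1 below, with a median of 1.31. Without Thy1 and Hapln4 these were 10 of 23, with a median of 1.01. They included the neurofilament genes Nefm (27.6 and 70.6 in Het, 14.4 and 1.54 in WT, 4.90 and 5.28 in KO) and Nefl, the vesicular glutamate transporter gene Slc17a7 (69.1 and 180 in Het, 37.9 and 1.67 in WT, 4.33 and 34.0 in KO), Nrgn, and the GABA-synthesizing enzyme gene Gad1 (71.6 and 85.0 in Het, 47.6 and 1.47 in WT, 3.22 and 24.2 in KO). Slc17a6, the glutamate transporter that olfactory sensory neurons also use, had both Het libraries below (534 and 349, against 608 to 866). The summed level of the 23 was 3275 and 3614 in Het and 2481 to 3792 in the others, so the groups overlapped in the sum. Of these, 5 genes (Snap25, Vsnl1, Slc17a6, Cdhr1 and Syt1) were at 500 or more in sorted WT olfactory neurons. Without them, a choice made after seeing the values, the other 18 summed to 1144 and 1821 in Het and 304 to 998 in the others, with both Het libraries above.

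The order of the other 4 libraries also differed between genes. WT water was the highest of the 4 in 20 of the 25 central neuron genes (80.0%) and in 27.3% of all genes. It was also the highest of the 4 in 12 of 12 glycolipid-anchored immunoglobulin genes, in 11 of 15 immature neuron genes (73.3%) and in 23 of the 31 genes other than members with a gap of at least 1 (74.2%). The full order WT water, KO odor, KO water, WT odor held in 12 of the 25 (48.0%) and in 6.47% of all genes. That order was not particular to central neuron genes. It held in 5 of the 12 immunoglobulin genes (41.7%), 3 of 10 astrocyte genes (30.0%) and 10 of the 31 (32.3%), but in 2 of the 15 immature neuron genes (13.3%). Among the members the full order held in Mobp alone, and WT water was the highest of the 4 in Thy1, Chi3l4, Mobp and Tuba8. Hapln4 went against it, with WT water the lowest of all. Markers of central neurons thus varied between libraries within a genotype as well as between genotypes. Their part in the members' values was not tested.

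Of 16 myelin and oligodendrocyte genes, 2 had both Het libraries above, Mobp and Mbp, and 1 below, Gpr37 (16.2 and 15.2 in Het against 21.4 to 29.8). The groups overlapped in Mag (4.61 and 8.64 in Het, 1.67 to 6.04 in the others) and Cnp (44.5 and 74.2 in Het, 21.7 to 45.7 in the others). The share above, 12.5%, was near that of all genes, and the summed level of the 15 other than Mobp was 2399 and 2623 in Het and 2000 to 2494 in the rest. Among 11 link proteins and brain proteoglycans, Hapln4 and Tnr, a tenascin, had both Het libraries above, while Has2, a hyaluronan synthase, had both below. Hapln1 and Hapln3 overlapped. Of 12 glycolipid-anchored immunoglobulin genes related to Thy1, 6 had both Het libraries above, Thy1 among them, with a median of 1.06. Without Thy1 these were 5 of 11, with a median of 1.04. Cntn4, a contactin, had both below (138 and 98.0, against 156 to 229). After Thy1 the widest gap was that of Iglon5 (0.24). Of 9 T cell genes measured, Thy1 and Lat had both Het libraries above; Cd3g was 1.08 and 1.72 in Het and 1.14 to 3.68 in the others.

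The other 4 alpha tubulins measured lay much closer together than Tuba8. Tuba1a was 2034 and 2852 in Het and 1685 to 1969 in the others, a gap of 0.05, and Tuba1b had a gap of 0.04. Tuba1c and Tuba4a overlapped. Of 10 Bex and Tceal genes, 7 (70.0%) had both Het libraries above and 0 below, with a median of 0.50. Without Bex1, which was picked for this ordering, these were 6 of 9, with a median of 0.48. Tceal6 (108 and 96.9 in Het, 52.1 and 6.19 in WT, 3.43 and 17.1 in KO) came next to Bex1 with a gap of 0.89, while the others were within 0.23. Bex2, the closest relative of Bex1, overlapped, with 1050 and 766 in Het and 599 to 952 in the others. Reads shared between such relatives could be assigned to either, and how the authors treated them is not given in the sources used here.

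Of 6 chitinase family genes, Chi3l4 was the 1 with both Het libraries above (16.7%). Chi3l3 (RefSeq Chil3), its direct neighbour with no protein-coding gene between them, was 79.4 and 163 in Het, 56.3 and 48.5 in WT, and 56.7 and 164 in KO, so Het and KO overlapped. Reference windows of the pair that also take in the 50 bases after the start, 300 bases in all, could be aligned over 270 bases, of which 93.0% were identical. How alike their transcripts are was not measured here, and any read that fits both genes could have been counted for either. Chi3l1, Chia and Chid1 overlapped too, and Ctbs was lower in both Het libraries. Of 13 macrophage genes, 6 (46.2%) had both Het libraries above, led by the complement genes C1qb (gap 0.66), C1qc (0.65) and C1qa (0.42). The rest of the 6 were barely apart: Mrc1 (0.07), Cx3cr1 (0.05) and Cd68 (0.005). The summed level of the 13 overlapped (2368 and 2397 in Het, 1229 to 4107 in the others). Lyz2, the lysozyme of macrophages, made up most of that sum, with 3626 in KO odor. Without it, a choice made after seeing the values, the other 12 summed to 726 and 934 in Het and 384 to 597 in the others, with both Het libraries above. Their part in the Chi3l4 values was not tested.

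Of 21 Ier family and immediate early genes, Ier5l and Egr3 (16.0 and 36.1 in Het, 5.70 to 8.45 in the others) had both Het libraries above. Genes that rose with odor in each genotype, such as Fosb (51.9 and 576 in Het, 17.0 and 587 in WT, 12.6 and 401 in KO), can hardly meet that ordering. Het was highest within each treatment in 9 of the 21, Ier5l included, against 18.0% of all genes. The median was 0.55, and 0.47 without Ier5l. Ier5 (64.9 and 69.2, against 72.4 to 105) had both below, and Ier2 and Ier3 overlapped. The 16 genes of meiotic recombination had a median of -0.13. Het was highest within each treatment in 3 of the 16, a share near the 18.0% of all genes. Besides Mnd1 these were Brca1 and Smc1b, a meiotic cohesin subunit (12.5 and 5.72 in Het, 10.6 and 2.68 in WT, 7.88 and 3.34 in KO). Smc1b, like Mnd1, was lower with odor in each genotype, but the share of all genes with that order was not counted. Brca1 (gap 0.10) had both Het libraries above the other 4, and Msh5 and Sycp2 had both below. Psmc3ip, the partner of Mnd1, was 44.5 and 40.5 in Het and 27.9 to 63.6 in the others, and the recombinase gene Dmc1 (5.19 and 2.53, against 3.39 to 7.89) overlapped as well. Rec8, a meiotic cohesin, was 30.0 and 5.35 in Het, 8.09 and 4.71 in WT, and 31.8 and 26.0 in KO.

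Markers of mature olfactory neurons moved with the Het libraries. Of 17 mature olfactory neuron genes, 15 (88.2%) had both Het libraries below the other 4 and 0 above, with a median of -0.84. Omp, the olfactory marker protein, was 1582 and 249 in Het, 5962 and 2717 in WT, and 3296 and 5752 in KO. The summed level of the 17 was 12319 and 8116 in Het and 20980 to 30258 in the others. In such bulk RNA, fewer cells of a type and less RNA per cell cannot be told apart. Of 15 immature neuron genes 2 had both Het libraries above, Bex1 and Gng8 (13.3%). Of 15 genes of dividing progenitors 4 had (26.7%), led by the proneural gene Neurog1 (44.9 and 85.3 in Het, 14.3 to 29.7 in the others). All 15 had the higher mean in Het, with a median of 0.44, or 0.42 without the member Mnd1, which the list counts. Het was highest within each treatment in 8 of the 15, Mnd1 included, against 18.0% of all genes. Of 15 supporting cell and gland genes, 0 were apart in either direction. Of 17 Schwann cell and ensheathing glia genes 3 had both Het libraries above (17.6%), with the sum at 2500 and 2550 in Het and 1782 to 2955 in the others. Of 10 astrocyte genes 2 had, Gfap (gap 0.08) and Aldh1l1 (0.02), and Slc4a4 had both below. Of 15 genes of DNA methylation and demethylation 4 had both above (26.7%), Tet3, Gadd45b (0.28), Mbd3 (0.09) and Uhrf1 (0.05). In that list 1 gene had both below, and the median was -0.04, with 7 genes higher and 8 lower in the Het mean. The 4 Y-linked genes measured were lower in Het odor than in any other library, as in Ddx3y (44.0, against 72.7 to 117), and the labels do not give the sex. The part of these markers in the members' values was not tested.

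**Figure D3:**
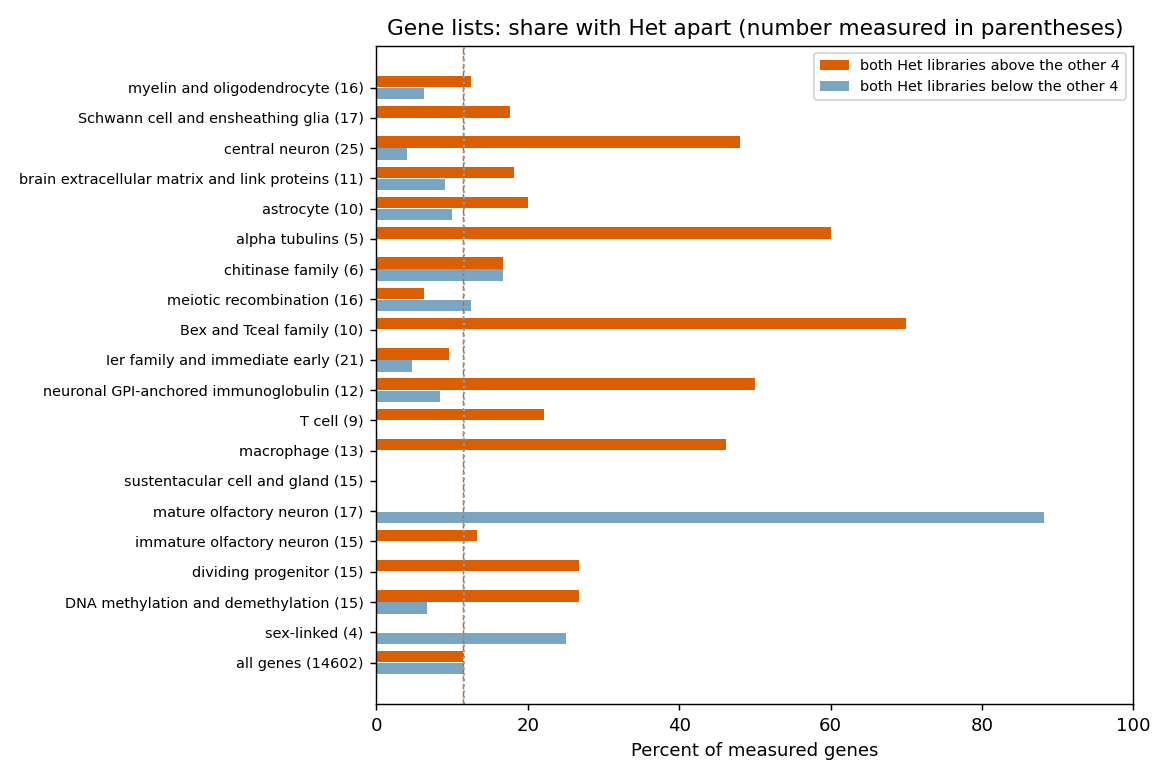
Percent of measured genes (horizontal axis) in each list (rows, number measured in parentheses) with both Het libraries above (orange) or below (blue) the other 4; dashed and dotted lines give the shares over all genes, 11.5% and 11.6%. The Bex and Tceal, alpha tubulin, glycolipid-anchored immunoglobulin, central neuron (48.0%) and macrophage (46.2%) lists lie far above the line for genes above. All of these but the macrophage list count members, which were picked for this ordering. The mature olfactory neuron list (88.2% below) lies far from the line for genes below. The myelin list (12.5% above, Mobp included) lies near the line for genes above.

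Contrasts that the rule for choosing members did not name were tested with limma over all 14602 genes. They use the same 6 libraries as the rule, which favoured genes high in both Het libraries and low in the other 4. The choice thus limited the differences that a member could show. For odor against water, with genotype as a block, 2 genes were called higher (0.0137%) and 0 lower at an adjusted p under 0.05; an unadjusted p under 0.05 was reached by 439 genes (3.01%) higher and 272 (1.86%) lower. With voom, run on recovered reads, 6 genes were called. The count was 4 without WT water, 1 without Het water and 0 without Het odor, KO water or KO odor. No member passed in any of these. The member nearest to a call was Mnd1, lower with odor in each genotype, with 0.46 times its water value in WT, 0.39 in Het and 0.29 in KO, and a log2 difference of -1.37 ± 0.26 (SE; limma unadjusted p = 0.00249, adjusted p = 0.883). Bex1 was also lower in each genotype (-0.40 ± 0.17, limma adjusted p = 0.883) and Ier5l higher in each (0.27 ± 0.15, limma adjusted p = 0.883). Thy1 was at -0.02 ± 0.18. For Mobp the odor value was below water in WT (1.08 against 13.2) and above it in KO (6.24 against 2.90), and its estimate of -0.72 ± 0.79 turned to 0.47 without either WT library.

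For KO against WT, with treatment as a block, limma called 0 genes (0% in either direction), and voom called 0. Before adjustment, 185 genes (1.27%) were higher and 141 (0.966%) lower with p under 0.05. Tuba8 had the largest difference among the members, -2.72 ± 0.61 (limma unadjusted p = 0.00513, adjusted p = 1), with both KO libraries below both WT libraries. Chi3l4 was at -1.48 ± 0.53 and Thy1 at -0.53 ± 0.22, again with both KO libraries below both WT libraries. Mnd1 was at 1.61 ± 0.32 and Ier5l at 0.34 ± 0.19, with both KO libraries above both WT libraries. For each of these 5 the adjusted p was 1 with limma. Hapln4 (0.54 ± 0.60), Mobp (0.04 ± 0.97) and Bex1 (0.05 ± 0.21) had WT and KO libraries that overlapped. The estimates differed in sign among the members, and none passed over all genes. The share of all genes with WT and KO libraries apart in this way was not counted, so nothing is read from these orderings.

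Whether odor acted differently in Het was tested against the common odor effect of WT and KO. Limma called 0 genes (0%) and so did voom. Before adjustment, 225 genes (1.54%) were higher and 371 (2.54%) lower with p under 0.05. Chi3l4 was the member that differed most: it was 1.52 times its water value in Het odor, but 0.30 times in WT and 0.58 times in KO, a log2 difference of 1.85 ± 0.50 (limma unadjusted p = 0.0178, adjusted p = 0.939). Tuba8 (1.32 ± 1.03) and Mobp (1.02 ± 1.83) had wide errors. Bex1 (0.01 ± 0.38), Mnd1 (0.03 ± 0.62), Ier5l (0.06 ± 0.33), Thy1 (-0.15 ± 0.40) and Hapln4 (-0.61 ± 1.17) differed by less than their errors. With 1 library per genotype and treatment these fits have 2 residual degrees of freedom, and 1 in the last, so an adjusted p above the threshold does not show that nothing changed.

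**Figure D4:**
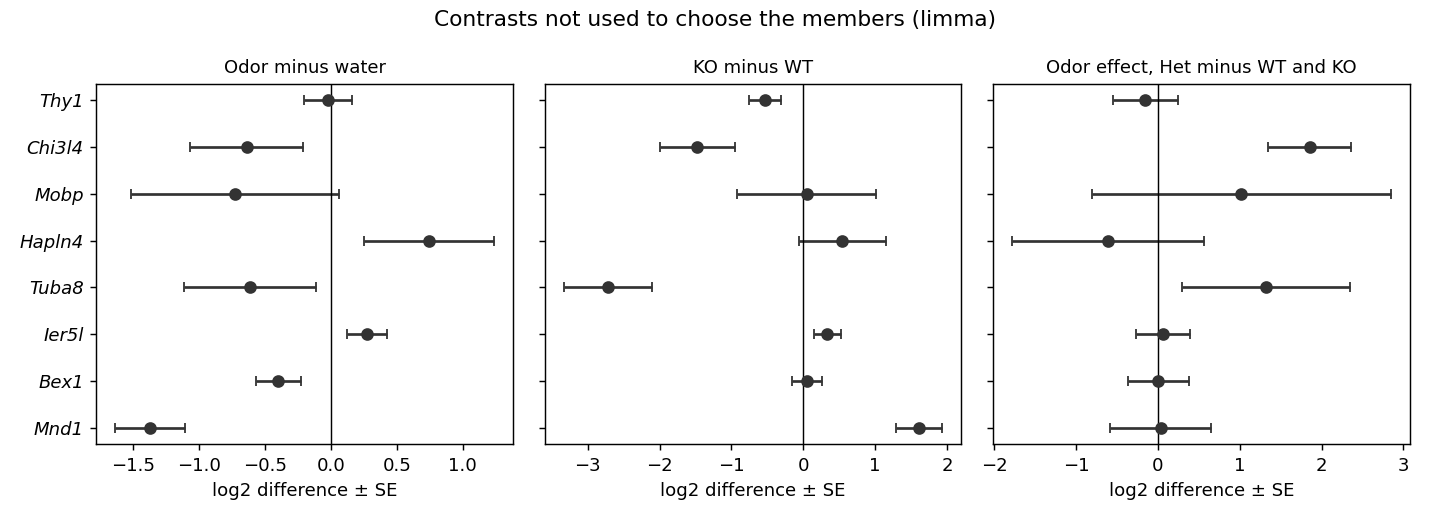
Log2 differences with their standard errors (horizontal axis, limma on log2(value + 0.5)) for the 8 genes (rows) in 3 contrasts. The rule for choosing members did not name these contrasts but used the same libraries. Mnd1 lies farthest below 0 for odor (-1.37), Tuba8 for KO against WT (-2.72), and Chi3l4 farthest above 0 for the odor effect in Het (1.85); none passed over all genes.

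In sorted neurons 5 of the 8 genes had a row among 14744 with values; Thy1, Chi3l4 and Mnd1 were not listed. The deposited table gives 1 value per genotype, so there is no error and no test, and levels are compared only within it. Tuba8 had a value of 1.18 in WT, against 11.1 in Het and 10.2 in KO. Hapln4 was 6.82, 18.5 and 17.0 in the same order. These 2 members had Het and KO both at least 2-fold above WT, as had 5.34% of the 14738 genes kept. Bex1 (45.6, 75.4 and 80.6) and Ier5l (37.6, 61.9 and 70.7) were 1.65 times WT in Het, and 1.77 and 1.88 times in KO. Mobp was 6.20, 5.75 and 8.91, with Het the lowest. Het and KO were both above WT for 4 of the 5, and for 31.2% of all genes.

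None of the 5 had Het at least 2-fold above both other genotypes in sorted neurons, as 0.421% of all genes had. Het was the highest of the 3 genotypes for Hapln4 and Tuba8 and for 25.7% of all genes. The Het value was within 1.09 times that of KO for Hapln4 and 1.08 times for Tuba8. In the epithelium the same ratio was 4.23 and 5.51 for Hapln4 and 9.88 and 80.9 for Tuba8 (water, then odor), the last against 1 read in KO. The members were picked for high epithelial ratios, so nothing is read from the difference between epithelium and sorted neurons. Library kit moved with genotype here: the labels give ScriptSeq with 200 ng of RNA for the 2 WT libraries, NuGEN with 100 ng for the 2 KO libraries, and 1 library of either kind for Het. Kit and genotype cannot be told apart between WT and KO in these values.

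**Figure D5:**
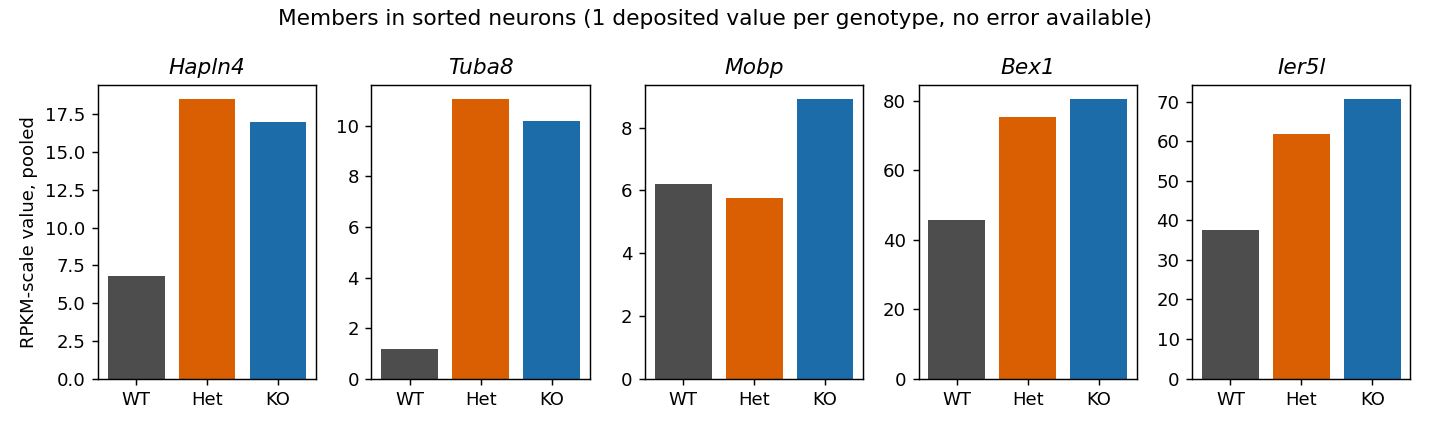
Deposited values in sorted neurons (vertical axes, RPKM scale, from 0) for the 5 genes with a row, 1 bar per genotype (grey WT, orange Het, blue KO), each from 2 libraries combined by the authors and without error. Het and KO are close for Hapln4 (18.5 and 17.0) and Tuba8 (11.1 and 10.2), and Mobp is lowest in Het (5.75).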

How the data were processed

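RNA-seq was measured in 12 of the 33 samples; the other 21 were not analysed here. The submitters' processing notes name STAR 2.3.0, featureCounts, DESeq, Bowtie2 2.1 and Picard 1.64, and the builds mm9 and NCBIM37, without roles or order. The authors deposited both tables as RPKM values, 1 column per MOE library and 1 per mOSN genotype (7 mOSN rows without values were left out). In MOE, each value was a whole read number scaled by library and gene: ratios between libraries gave whole reads, within 0.0001 reads, for 100% of genes, up to any divisor common to all 6 libraries. The smallest read number was 1, so the MOE values include no gene without reads in a library. Ranks over all genes are ranks among such genes.

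Groups came from the sample titles. A gene was kept if 2 or more columns reached 0.5, and log2(value + 0.5) was fitted with limma 3.58.1 in R 4.3.3 (mean-variance trend, two-sided, Benjamini-Hochberg adjustment over all genes), checked on simulated data. Whether libraries come from separate animals is not given in the sources used here, so the library-to-library spread behind a p-value may be technical. With 1 library per genotype and treatment, that spread also takes in any difference in odor effect between genotypes. In the test of the odor effect in Het, it takes in such a difference between WT and KO. Named were the 8 members, Dnmt3a, the 10 other genes with the widest gap, the 10 with the highest r, and listed genes apart in Het (up to 6 by gap) or defining a member's family; further listed genes (among them Mag, Cnp, Cd3g, Omp, Ddx3y, Rec8, Smc1b, Lyz2 and Slc17a6) were chosen after their values were seen. Members and lists were chosen with earlier results of these data known. The mOSN test planned for single libraries was replaced by values, since the table holds 1 per genotype. Alternatives changed the pseudocount, filter, scaling, trend, block and libraries used.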

Additional observations from a re-analysis of the deposited data

How the results depend on the processing

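With median-ratio scaling and with quantile normalization, 7 members kept both Het libraries above the other 4. The pseudocount and the filter could not change that count, because neither alters the order of the libraries within a gene. Leaving out 1 library, which can only widen a gap or leave it as it was, gave 7 to 8, and 6 to 7 with a gap of at least 1. The gap of Mnd1 was 0.92 without Het odor, 1.29 without KO water and -0.43 without any other library, and that of Bex1 was 1.32 without Het odor. Over all genes, leaving out 1 library gave 2038 to 4950 genes with the Het libraries above and 47 to 208 with a gap of at least 1. The central neuron count was 12 to 16, the mature neuron count 15 to 17 and the Bex and Tceal count 7 to 10 in these fits, which were chosen after seeing the data, as was voom. For odor against water the genes called numbered 2, but 1 with median-ratio scaling, 0 without the mean-variance trend, 1 without the block, 6 with voom and 0 to 4 leaving out 1 library. No member passed in any of the 312 alternative fits of the 3 contrasts (smallest limma or voom adjusted p = 0.232). Signs turned in 20 of them. For odor, leaving out 1 library moved Thy1 from -0.13 (either KO library) to 0.0379 (either WT library), with 0.0284 without either Het library, Mobp from -1.58 (either KO) to 0.47 (either WT), and Tuba8 from -1.06 (either Het) to 0.0606 (either KO). For KO against WT, Mobp was at -0.0299 with a pseudocount of 1, -0.0035 with quantile normalization, -0.34 with voom, -1.75 without WT odor, -1.24 without KO odor and 1.84 without WT water, and Hapln4 at -0.34 without WT water, -0.0364 without KO water and 1.42 without WT odor. For the odor effect in Het, Bex1 was at -0.0391 with median-ratio scaling and -0.0466 with quantile normalization, and Mnd1 at -0.0081 with a pseudocount of 1, -0.0137 with median-ratio scaling and -0.0492 with quantile normalization. The cause of these turns was not tested. Depth limits Hapln4, Tuba8 and Mnd1, each with a library under 10 reads. No paired analysis was possible because replicate numbers are given for mOSN alone, whose table holds 1 value per genotype. The MOE fits carry genotype or treatment as a block instead.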
